A study of Mus musculus with 4 samples.

Results

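The TOX family consists of 4 genes, Tox, Tox2, Tox3 and Tox4, and it is described here by its accessible chromatin in lymphoid tissue inducer (LTi) cells, the group 3 innate lymphoid cells that start the formation of lymph nodes and Peyer's patches. Its regions are the islands of a DNase-seq table whose nearest protein-coding gene end, within 50 kb, belongs to one of these genes, or that lie in the gene body. The members were thus chosen by position, among islands that the peak caller had selected on their reads, and the family was picked with the reads of this table known, so its counts are given as a description with no test. This gave 9 islands of 16584, with 3 at Tox, 5 at Tox2, 0 at Tox3 and 1 at Tox4. DNase-seq marks open chromatin by the DNA ends that the nuclease DNase I cuts, and an island is a run of enriched 200 bp windows joined by the peak caller.

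Peyer's patches of C57BL/6 mice supplied the cells, in 2 groups of 2 libraries. Tcf7-KO mice carried a floxed Tcf7, which encodes the transcription factor TCF-1, together with a Cre recombinase that limits the deletion to cells in which its promoter is or once was active. Control mice (Tcf7+/+) carried intact Tcf7, and no Cre is named for them. Each library was made from 300 cells sorted as CD127+ and CCR6+ and negative for lineage markers, KLRG1, NK1.1 and NKp46. The single table gives 2 read counts per island, headed peak and control. Which genotype or library stands behind either of them is not stated. Whether the control side holds the control mice is thus not known, and no fold is read as a difference between Tcf7-KO and control mice. There are no replicate values, and a fold here divides an island's peak-side reads by its control-side reads times a scaling factor.

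TOX proteins carry 1 HMG box, a DNA-binding domain that bends DNA and that TCF-1 also has, although in a different subfamily. TOX is needed in mice for the innate lymphoid progenitors that give rise to LTi cells and natural killer cells, and for CD4 T cell development in the thymus. TOX2 acts in follicular helper T cells and natural killer cells, TOX3 is best known from neurons and breast epithelium, and TOX4 is a widely expressed subunit of a nuclear phosphatase complex, PTW/PP1.

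Promoter sequences from RefSeq (GRCm38.p6, 250 bases before to 50 after a listed start site) matched 3 of the 4 genes, Tox2, Tox3 and Tox4, and not Tox. Shown first are the promoters of the most upstream Tox2 start and of Tox4, which lie in islands, with each GC box in capitals (GGGCGG on either strand, overlaps kept). They are followed by that of the Tox3 start, which lies in none, with the same box in capitals.
Tox2 upstream start (chr2:163202877-163203176, plus strand): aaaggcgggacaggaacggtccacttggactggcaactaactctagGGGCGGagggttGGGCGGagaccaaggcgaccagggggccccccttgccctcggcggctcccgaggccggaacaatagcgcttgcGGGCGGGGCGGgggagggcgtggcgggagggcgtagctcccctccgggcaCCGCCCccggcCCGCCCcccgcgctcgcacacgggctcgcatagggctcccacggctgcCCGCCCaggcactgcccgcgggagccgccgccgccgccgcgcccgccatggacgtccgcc
Tox4 start (chr14:52278896-52279195, plus strand): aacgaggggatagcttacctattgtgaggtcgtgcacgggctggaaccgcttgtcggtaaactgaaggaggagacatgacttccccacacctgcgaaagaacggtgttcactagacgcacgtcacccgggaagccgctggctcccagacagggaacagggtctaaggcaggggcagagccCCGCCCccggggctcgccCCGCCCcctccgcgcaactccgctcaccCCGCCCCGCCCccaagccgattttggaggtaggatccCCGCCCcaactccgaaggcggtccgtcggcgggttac
Tox3 start (chr8:90348203-90348502, minus strand): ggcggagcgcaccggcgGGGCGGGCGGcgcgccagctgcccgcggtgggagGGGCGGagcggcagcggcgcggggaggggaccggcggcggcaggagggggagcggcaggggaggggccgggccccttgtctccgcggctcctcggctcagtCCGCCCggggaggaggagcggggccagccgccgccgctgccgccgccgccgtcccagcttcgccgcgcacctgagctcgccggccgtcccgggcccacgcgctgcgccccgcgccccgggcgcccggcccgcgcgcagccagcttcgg
The GC box occurred 7 times in the upstream Tox2 promoter, 5 times in that of Tox4 and 4 times in that of Tox3, and 46.2% of 21238 protein-coding promoter windows held at least 1. In the same island as the upstream Tox2 start, the second listed Tox2 start held 3 and the third 0. The 3 windows shown were rich in G and C, with 77.0% for Tox2, 65.7% for Tox4 and 85.3% for Tox3, against a median of 56.3% over all windows (interquartile range 48.3 to 64.7). The ratio of observed to expected CpG was 0.855 for Tox2, 0.840 for Tox4 and 0.957 for Tox3, and the median of all windows was 0.567. Windows of 70% G and C or more overlapped an island in 72.6% of 2689 cases, so the Tox3 promoter is among the minority of this class without one.

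Tox2 also has a start site inside the gene, 1 base apart in 2 transcript models. It is shown because it is the 1 listed Tox family start that holds the TCF/LEF core (ATCAAAG on either strand, in capitals), the sequence that TCF-1 and its relatives recognise.
Tox2 internal start (chr2:163225203-163225502, plus strand): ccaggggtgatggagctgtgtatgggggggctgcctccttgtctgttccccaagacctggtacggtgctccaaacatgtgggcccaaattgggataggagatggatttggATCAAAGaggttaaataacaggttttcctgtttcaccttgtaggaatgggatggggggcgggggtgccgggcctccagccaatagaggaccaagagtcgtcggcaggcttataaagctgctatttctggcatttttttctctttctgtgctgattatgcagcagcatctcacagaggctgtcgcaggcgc
The match begins 140 bases before the start site, and 3.22% of all promoter windows held one. This window had 53.3% G and C, a CpG ratio of 0.342 and 1 TATA box (TATAAA, in 12.6% of windows), and it lay in no island. Of windows with 50 to 60% G and C, 45.2% overlapped an island. The nearest island began 2748 bp downstream of the start. A match is a run of letters and was not tested as a binding site.

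Of the 9 TOX family islands, 8 were called at an FDR under 0.05 in the authors' deposited table, where 82.3% of all islands were, so the family's share is near the background. By location, 2 of the 3 gene-end islands were called, against 80.8% of all gene-end islands, and 6 of the 6 within genes, against 85.5%. At an FDR under 0.01 in that table there were 8 of 9 members and 64.2% of all islands, and with a fold over 2 beside an FDR under 0.05 there were 7 of 9 members and 50.4%. The islands held 181 peak-side and 201 control-side reads over 18800 bp. Their pooled fold was 2.61 (95% counting interval 2.12 to 3.21). The median fold was 3.87 over the 9 islands and 2.01 over all 16584. The family's islands had a median of 18 peak-side and 14 control-side reads, against 18 and 27 over all islands. The members thus had as many peak-side reads as the typical island and fewer on the control side. By location, the medians of the table were 14 and 18 within genes, where 6 of the 9 members lay, and 23 and 37 at gene ends. The part of location in this difference was not tested. The lower bound of the counting interval exceeded 1 in 7 of 9 islands, against 57.7% of the table.

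**Figure D1:**
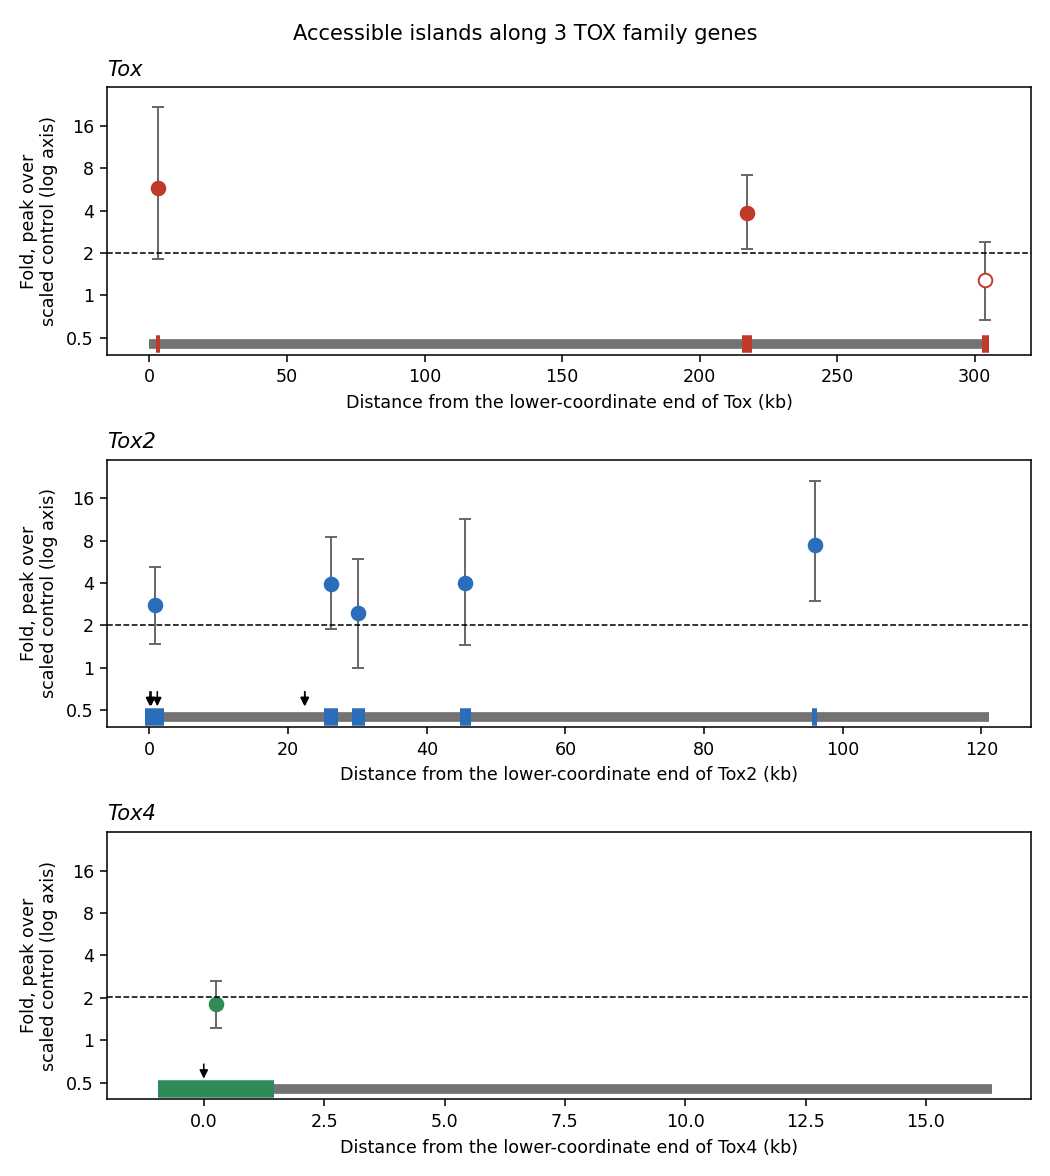
Fold of each island (peak side over scaled control side, log axis, with 95% counting interval) along Tox, Tox2 and Tox4, by distance in kb from the lower-coordinate end of the gene. The grey bar is the gene, coloured blocks are islands to scale, arrows mark RefSeq start sites (none listed for Tox), the dashed line is the median fold of all islands (2.01), and the open circle is the island not called; the Tox2 islands crowd into the first 45.5 kb apart from the one at 95.9 kb, which has the highest fold (7.46).

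Tox, which encodes the founding member of the family, spans 305 kb on chromosome 4 (6686353 to 6991557, mm10) and held 3 islands. On the minus strand, Tox begins at its upper-coordinate end. The island there (6989001 to 6991400) had 16 peak-side and 36 control-side reads and a fold of 1.29 (0.668 to 2.38). It was not called, with an FDR of 0.136 in the authors' deposited table. Its fold stood at percentile 8.50 of all islands and 9.64 of islands at gene ends, so the island nearest the start of Tox, ending 157 bp inside the gene, did not stand out from the scaled control side.

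The other Tox islands lay inside the gene and were lopsided. The one at 6901601 to 6905200, 86357 bp from the nearest gene end, was the widest of the family at 3600 bp. It had 28 peak-side and 21 control-side reads, a fold of 3.87 (2.12 to 7.16) and an FDR of 3.37e-08 in the authors' deposited table. Only 582 of the 4034 islands that lie within genes away from their ends were more than 50 kb deep, and this was the single TOX family island among them. The third island (6688801 to 6690000), 2448 bp from the far end of the gene, had 10 peak-side and 5 control-side reads, a fold of 5.80 (1.81 to 21.6) and an FDR of 1.49e-05 in the authors' deposited table. Its count was among the lowest of the table (percentile 7.01), and its interval spans a wide range. Between the third island and the deep one lay 211.6 kb of Tox without an island, and between the deep one and the start 83.8 kb.

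Pooled over the 3 islands, Tox had 54 peak-side and 62 control-side reads and a fold of 2.53 (1.72 to 3.70). Its 2 within-gene islands had 38 peak-side and 26 control-side reads. Their pooled fold was 4.24 (2.51 to 7.27), set against the 1.29 of its start. The ratio of these folds, which does not depend on the scaling, was 3.29 (exact conditional 95% counting interval 1.42 to 7.68). Of 1730 genes with assigned islands of both kinds and control-side reads in each, 67.2% had the higher pooled fold in their within-gene islands. The kind was set by any protein-coding gene. An island assigned to a gene can thus lie at the end of another gene or inside it, unlike those of Tox. The median ratio was 1.25 (interquartile range 0.889 to 1.78), and 81 genes had a ratio at or above that of Tox, itself included. The direction is thus the common one, and Tox lay at percentile 95.3 of these genes in its size. Among 329 genes within 20% of the length of Tox, 18.2% had at least as many islands.

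Tox2, on chromosome 2 (163203058 to 163324172, 121 kb), was the member with most islands, and all 5 were called in the authors' deposited table. Of 996 genes within 20% of its length, 43 (4.32%) had at least 5 islands, and the median was 1. The islands together had 81 peak-side and 65 control-side reads and a pooled fold of 3.61 (2.58 to 5.09). No other island lay within 77.2 kb of the gene on either side.

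The island over the Tox2 start (163202401 to 163205200) held 3 of its listed start sites. It had 22 peak-side and 23 control-side reads, a fold of 2.77 (1.47 to 5.21) and an FDR of 5.13e-05 in the authors' deposited table. Among islands at gene ends its fold stood at percentile 89.7. The cluster of upstream Tox2 start sites thus lay in an island, while the internal start had none of its own. With the control side scaled by the reads in all islands, the fold at the upstream start was 1.45 (0.771 to 2.72), and its island was not called.

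The 4 islands inside Tox2 had 59 peak-side and 42 control-side reads in all. The island just downstream of the internal start (163228201 to 163230200) had 19 peak-side and 14 control-side reads and a fold of 3.94 (1.87 to 8.48). After a gap of 2.00 kb, the next (163232201 to 163234200) had 11 peak-side and 13 control-side reads and a fold of 2.45 (0.996 to 5.94), so this one was called in the authors' deposited table (FDR 0.00422) although its own interval reaches below 1. That table takes the scaled control side as known, while the interval counts the error of both sides.

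The island at 163247801 to 163249400 had 11 peak-side and 8 control-side reads and a fold of 3.99 (1.46 to 11.4). The last one (163298601 to 163299400) was the narrowest of the family at 800 bp and the most lopsided. It had 18 peak-side and 7 control-side reads, a fold of 7.46 (2.97 to 21.1) and an FDR of 1.32e-09 in the authors' deposited table. It also had the most peak-side reads per kb of the 9 islands, 22.5, at percentile 87.6 of all islands. A higher fold was found at 226 islands of the table, and 12 islands, this one included, had at least this fold with at least 18 peak-side reads.

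The 5 intervals of Tox2 overlap, so at these counts the order of its islands by fold is a description of the table. The pooled fold was 4.07 (2.70 to 6.20) within the gene and 2.77 at the start, a ratio of 1.47 (0.682 to 3.16), percentile 62.5 of the 1730 genes with both kinds of island. The intervals of this ratio for Tox and Tox2 are wide and overlap, and whether the 2 genes differ in it was not tested.

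**Figure D2:**
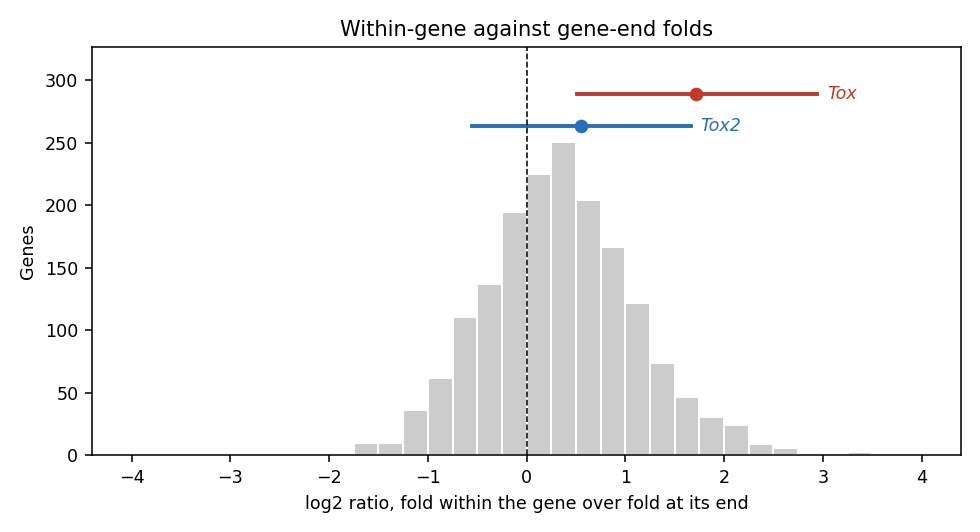
Histogram of the log2 ratio of the pooled fold of within-gene islands to that of gene-end islands, over 1730 genes with assigned islands of both kinds and control-side reads in each. Tox (ratio 3.29) and Tox2 (1.47) are drawn above as points with 95% counting intervals. Most genes lie to the right of the dashed line at equal folds, Tox lies in the right tail and Tox2 near the middle.

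Tox4 is short (16.4 kb, chromosome 14, 52279146 to 52295509) and overlaps the first bases of Rab2b, a Rab GTPase gene on the opposite strand, so that both start in the same place. The single island (52278201 to 52280600) covers the start of both genes, and its reads cannot be divided between them. It had the most reads of the family, 46 peak-side and 74 control-side. Its peak-side count stood at percentile 93.1 of all islands. The fold was 1.80 (1.22 to 2.64), with an FDR of 0.000293 in the authors' deposited table and percentile 45.8 among islands at gene ends. The start of Tox4 was therefore an ordinary gene-end island in fold, and a read-rich one among all islands in counts. The median peak-side count was 18 over all islands and 23 at gene ends. Of 2391 genes within 20% of its length, 61.9% had an island.

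Tox3, on chromosome 8 (90247110 to 90349029, 102 kb), had no island. The nearest islands lay 491.9 kb below and 445.0 kb above the gene, the second assigned to Chd9, a chromatin remodeller gene. Of 1190 genes within 20% of its length, 838 (70.4%) had an island. The lowest peak-side count in the table was 8, so Tox3 is without an island at this depth and is not shown to be closed.

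**Figure D3:**
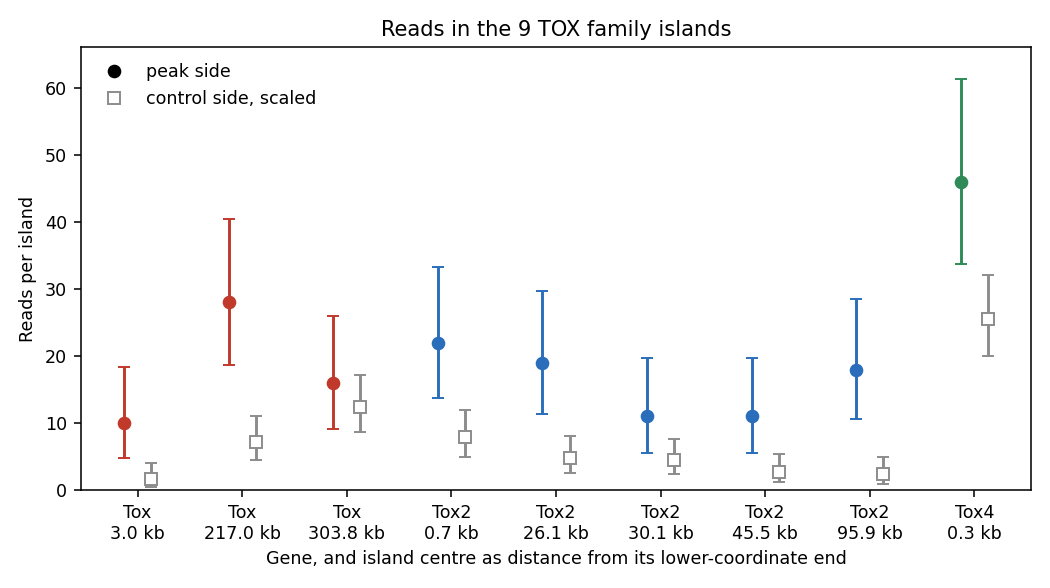
Peak-side reads (filled circles) and scaled control-side reads (open squares) per island, with exact 95% Poisson intervals, for the 9 islands of Tox (red), Tox2 (blue) and Tox4 (green), labelled by the distance of the island's centre from the lower-coordinate end of its gene. The Tox4 island has the most reads (46), and the Tox start (303.8 kb) is the island whose sides lie closest, at 16 and 12.4 reads.

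Folds within genes and at gene ends overlapped in the family, from 2.45 to 7.46 in the 6 within-gene islands and from 1.29 to 2.77 in the 3 gene-end islands. All 6 islands within Tox or Tox2 had a fold above the median of within-gene islands (2.34 over 4034 islands), with percentiles from 54.4 to 97.1 in that class. Of the 3 gene-end islands, only that of Tox2 lay above the median of gene-end islands (1.86 over 9233 islands). Peak-side reads ran from 10 to 28 in the within-gene islands of the family and from 16 to 46 in its gene-end islands, so the 2 kinds overlap in depth. The part of depth in these folds was not tested.

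**Figure D4:**
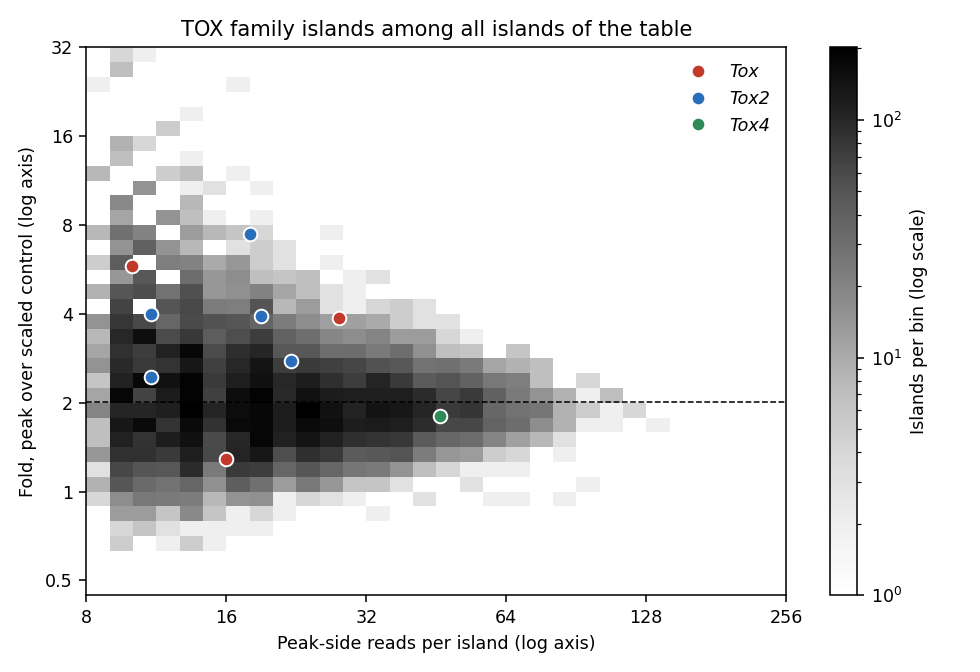
Fold against peak-side reads (both log axes) for all islands (grey, number per bin) and for the 9 islands of Tox, Tox2 and Tox4 (coloured points); the dashed line is the median fold of all islands, and 29 of 16584 islands lie outside the axes. The Tox4 island (46 reads, fold 1.80) lies among read-rich islands near the line, 7 of the others lie above the line at 28 reads or fewer, and the Tox start (16 reads, fold 1.29) lies below it.

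The level of all these folds rests on the scaling factor. With the control side scaled by the reads in all islands, every fold is divided by 1.91. The Tox4 fold then reads 0.943 (0.638 to 1.38) and that of the Tox start 0.674 (0.349 to 1.25), both below 1. Of the 9 islands, 4 kept an FDR under 0.05 under that scaling, where 9.19% of all islands did. The lower bound of the interval stayed over 1 in 2 of the 9, against 5.08% of the table. The 4 were both within-gene islands of Tox, the Tox2 island downstream of the internal start and the last Tox2 island.

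No boundary case decided membership by distance, since each of the 9 islands overlaps its gene. The closest islands outside were 1 within Mettl3 (52304801 to 52305400), 9.29 kb above Tox4, with 13 peak-side reads, 25 control-side reads and a fold of 1.51 (0.709 to 3.06), and 1 over an end of Chd8, 20.1 kb below it, with a fold of 1.49 (0.985 to 2.22). Around Tox2 they were an island assigned to Gtsf1l, 78.9 kb below (28 and 31 reads, fold 2.62, 1.51 to 4.51), and one of 8 and 6 reads assigned to Jph2, 77.2 kb above. Around Tox they lay 172.8 kb below and 763.6 kb above, and neither had a gene end within 50 kb. Tox and Tox2 islands thus stood apart from those of their neighbours, whereas the Tox4 island was one of a close row.

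The sorted population was checked by the islands of marker genes. Of 11 LTi and ILC3 genes, 10 had an island and 10 a called one in the authors' deposited table. Of all protein-coding genes, 55.2% had an island and 47.6% a called one. Pooled folds were 3.79 for Tnfsf11 (81 and 62 reads), 3.63 for Il1r1 (129 and 103), 3.15 for Nrp1 (38 and 35), 3.10 for Kit (95 and 89), 2.34 for Il23r (21 and 26), 2.16 for Il7r (29 and 39), 1.86 for Ltb (36 and 56), 1.68 for Id2 (88 and 152), 1.65 for Lta (42 and 74) and 1.55 for Ahr (30 and 56), so the values of Tox (2.53) and Tox2 (3.61) lay within the range of these genes. Ccr6, a marker of the sort, had none. Of the T cell markers, which matter here because T cells also use Tox and Tox2, 1 of 7 found in the gene table had an island (Cd3d, 17 reads on each side), and Cd3e, Cd3g, Cd5, Cd8a, Cd28 and Themis had none. Islands were found at 3 of 7 B cell markers (49 and 46 reads in all), 1 of 5 myeloid markers (16 and 14 reads) and 2 of 4 epithelial markers (52 and 82 reads). Beside the 55.2% of all protein-coding genes, the B cell and epithelial counts lie near the background. Counts from such short lists are not read as presence or absence of these cells, T cells included. Pooled folds at the B cell markers were 6.53 for Ebf1 (9 and 4 reads), 3.07 for Cd79b and 2.55 for Pax5. They were 3.31 for Spi1 (myeloid), 4.71 for Krt8 (13 and 8 reads) and 1.53 for Epcam (both epithelial), and 2.90 for Cd3d. These folds overlap those of the LTi and ILC3 genes and in part exceed them, so the fold does not separate the cell types. The part of other cells in the reads at Tox and Tox2 was not tested.

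Genes that work with TOX proteins were described by the same assignment, by which 55.2% of all protein-coding genes had an island and 47.6% a called one. Among 11 transcription factors of early innate lymphoid development, of which TOX is another, 10 had an island and 10 a called one. Their pooled folds were 1.96 for Nfil3 (67 and 99 reads), 1.68 for Id2 (88 and 152), 2.69 for Tcf7 (102 and 110), 2.70 for Gata3 (93 and 100), 2.28 for Zbtb16 (77 and 98), 2.02 for Ets1 (149 and 214), 2.24 for Runx3 (169 and 219), 1.81 for its partner Cbfb (45 and 72), 2.90 for Rora (157 and 157) and 1.98 for Lef1 (47 and 69). Bcl11b, a T cell and group 2 factor, had no island. The pooled fold of Tox2 (3.61, 2.58 to 5.09) was above these values, but its interval overlaps that of Rora (2.31 to 3.64), and the LTi markers Tnfsf11 and Il1r1 were at 3.79 and 3.63.

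Calcineurin and NFAT, which switch on Tox in activated T cells, had a called island at 6 of 6 genes, against 47.6% of all protein-coding genes. The pooled folds were 1.86 for Ppp3ca, 1.73 for Ppp3cb and 1.47 for Ppp3r1, which encode calcineurin subunits, 2.18 for Nfatc1 (11 islands), 2.21 for Nfatc2 (8 islands) and 2.26 for Nfatc3. Of 9 NR4A factors and inhibitory receptors of the TOX-dependent state of exhausted T cells, 8 had a called island. Their folds were 2.14 for Nr4a1, 1.61 for Nr4a2, 2.02 for Nr4a3, 2.52 for Pdcd1, 2.15 for Lag3, 2.11 for Tigit, 3.07 for Ctla4 and 1.69 for Entpd1, and Havcr2 had none.

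Of the partners of TOX4 in the PTW/PP1 complex, all 5 had an island and 4 a called one, with folds of 2.10 for Ppp1r10 (the scaffold PNUTS), 2.21 for Wdr82, 1.35 for Ppp1ca, 1.99 for Ppp1cb and, uncalled, 1.26 for Ppp1cc. The HBO1 acetyltransferase complex, with which TOX associates in T cells, had an island at 8 of 8 genes and a called one at 7. Among all protein-coding genes, 55.2% had an island and 47.6% a called one. Kat7, its catalytic subunit, had a fold of 2.46, followed by Ing4 at 2.41, Jade2 at 1.73, Brpf1 at 1.64, Brd1 at 1.56, Jade1 at 1.51, Meaf6 at 1.46 and, uncalled, Ing5 at 1.30. In the follicular helper list, to which TOX2 belongs in T cells, 3 of 7 genes had an island, all called. They were Bcl6 (fold 1.65), Cxcr5 (4 islands, 1.97) and Il21 (1.49), and Icos, Ascl2, Sh2d1a and Pou2af1 had none.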

How the data were processed

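The authors deposited 1 table. Bowtie2 2.4.2, SICER 2.0 and genome build mm10 were used, per the submitters' processing notes. What the table's 2 sides hold, and whether libraries were pooled, is not stated there. The deposited read counts are not normalized. The deposited fold is a ratio, with control-side reads times 0.345 in the denominator (0.25 reads replacing 0), and the deposited p-value is a Poisson upper tail. All 16584 folds (relative tolerance 0.0001) and p-values (absolute tolerance 0.0001) were recomputed. An absolute tolerance does not check the size of p-values smaller than it. The table sums to 425134 peak-side and 645087 control-side reads in islands, and library totals are not given.

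Positions are printed 1-based. Genes came from RefSeq GRCm38.p6, the assembly of mm10 (21887 protein-coding genes), without exons, so exonic and intronic positions are not separated. Gene-end islands are those at most 1 kb from an end of a protein-coding gene. Other genes were assigned islands by the rule used for the members. Intervals are exact (Clopper-Pearson for folds, Poisson for reads) at 95%, cover counting error only, and were tested on simulated data. The reads carry no molecular identifiers and may repeat molecules. For the scaling by the reads in all islands, Poisson upper-tail p-values were recomputed and adjusted by the Benjamini-Hochberg method over all 16584 islands. No test of the family was run, since the rule uses these reads. The text names every member island, the nearest islands outside, and every gene of the partner lists, except 1 item that is not reported here. Members and lists were chosen with earlier results of these data known. Python 3.11.15, pandas 2.3.3 and scipy 1.17.1 were used.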

Additional observations from a re-analysis of the deposited data

How the results depend on the processing

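No paired analysis was possible because neither read column belongs to a known library or replicate; leaving out replicates was not possible for the same reason. Scaling the control side by the reads in all islands left 4 of the 8 calls and gave pooled folds of 1.32 for Tox, 1.89 for Tox2 and 0.943 for Tox4, the last with its direction turned. With at least 20 peak-side reads, 3 islands remained, 1 each of Tox, Tox2 and Tox4, all 3 called, and the Tox fold was 3.87, which is also its value from its island of most reads alone. The assignment within 10 kb, within 100 kb or to the gene body and 1 kb gave the same 9 islands. Without the gene-body clause, an alternative chosen after seeing the data, 8 islands remained and the Tox fold was 1.84 on the loss of the deep island. Leaving out the Tox4 island for its second gene was chosen likewise and left 8. Tox3 gave no value under any setting. The limits are 10 to 46 peak-side reads per island and the lack of replicates.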
